A study of Mus musculus with 6 samples.

Results

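The genes described here are 9 transcripts of the circadian clock in the mouse left ventricle, chosen by symbol from the 33696 features that were counted. They are Dbp (ENSMUSG00000059824), Tef (ENSMUSG00000022389), Hlf (ENSMUSG00000003949), Nr1d1 (ENSMUSG00000020889), Nr1d2 (ENSMUSG00000021775), Ciart (ENSMUSG00000038550), Per1 (ENSMUSG00000020893), Per2 (ENSMUSG00000055866) and Per3 (ENSMUSG00000028957), each with 1 row in the count matrices. They were picked because earlier results of the same libraries showed several of them at the low end in R403Q-EMPA. Their levels and fold changes are therefore given as a description, and no test of them is read as a result.

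Single-nucleus RNA sequencing compared the left ventricle of 12-week-old male mice in 3 groups of 2 libraries each. The WT-CD animals were wild-type littermates on the control diet (CD). R403Q-CD carried 1 mutated allele of the cardiac myosin heavy chain gene, labelled Myh6+/R404Q (R403Q), which models hypertrophic cardiomyopathy, and ate the same diet. R403Q-EMPA carried that allele and ate the same diet with empagliflozin (EMPA), an inhibitor of the sodium-glucose cotransporter, at 0.15 mg per g of diet or about 15 mg per kg body weight. Mice changed to these diets when 9 to 10 weeks old. The study's methods place the RNA sampling early in the treatment while the protocol in the labels names a longer diet, so its length is not given here. Myh6 is expressed mainly in cardiomyocytes, and nuclei of other classes carry the allele as well. The labels do not say whether 2 libraries of a group came from 2 animals, and any p-value then measures only the spread between these libraries. None of these 6 libraries combined the wild-type genotype with EMPA.

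The circadian clock is a feedback loop of transcription. Bmal1 pairs with Clock or Npas2 and switches on genes that carry E-boxes, among them the Per and Cry genes, whose proteins then return to the nucleus and inhibit the pair. Nr1d1 and Nr1d2 encode REV-ERB alpha and beta, heme-binding receptors that repress Bmal1, and Dbp, Tef and Hlf encode PAR bZIP factors that act on D-boxes, where Nfil3 represses. The loop runs in most cell types, cardiomyocytes included, and transcripts such as Dbp and Nr1d1 swing widely over the day. The sources used here give no hour of tissue collection, so hour and group cannot be told apart in any comparison that follows.

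Since the members share regulatory elements by textbook knowledge, the sequence just upstream of their start sites was searched for these motifs. RefSeq promoter windows of the build GRCm38.p6, 300 bases long with 250 of them before the start site, were found for 8 of the 9 members. The 6 stretches printed here are the 250 upstream bases of members whose window held a match, 1 window per gene, in lower case with the matched motif in capitals, 5′ to 3′ on the strand of the gene.
Ciart, chr3:95882229-95882478, minus strand: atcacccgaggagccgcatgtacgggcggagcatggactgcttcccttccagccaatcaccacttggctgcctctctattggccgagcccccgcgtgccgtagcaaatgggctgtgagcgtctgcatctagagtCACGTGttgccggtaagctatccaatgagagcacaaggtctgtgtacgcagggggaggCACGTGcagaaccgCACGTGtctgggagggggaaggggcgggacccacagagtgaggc
Per1, chr11:69098699-69098948, plus strand: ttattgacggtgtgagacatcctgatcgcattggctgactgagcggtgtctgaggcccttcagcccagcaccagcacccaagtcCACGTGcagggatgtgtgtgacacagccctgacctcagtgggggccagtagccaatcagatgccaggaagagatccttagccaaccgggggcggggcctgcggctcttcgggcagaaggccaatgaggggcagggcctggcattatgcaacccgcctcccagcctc
Tef, chr15:81802423-81802672, plus strand: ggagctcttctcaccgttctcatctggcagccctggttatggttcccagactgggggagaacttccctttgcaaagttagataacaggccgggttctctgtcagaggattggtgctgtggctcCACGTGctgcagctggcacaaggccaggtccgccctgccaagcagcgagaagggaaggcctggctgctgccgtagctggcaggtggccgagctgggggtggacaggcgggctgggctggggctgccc
Nr1d1, chr11:98775378-98775627, minus strand: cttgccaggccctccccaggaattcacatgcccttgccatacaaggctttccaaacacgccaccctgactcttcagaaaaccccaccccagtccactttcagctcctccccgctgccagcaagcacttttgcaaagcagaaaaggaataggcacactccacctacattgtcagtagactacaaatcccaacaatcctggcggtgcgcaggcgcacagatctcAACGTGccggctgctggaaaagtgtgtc
Per3, chr4:151044666-151044915, minus strand: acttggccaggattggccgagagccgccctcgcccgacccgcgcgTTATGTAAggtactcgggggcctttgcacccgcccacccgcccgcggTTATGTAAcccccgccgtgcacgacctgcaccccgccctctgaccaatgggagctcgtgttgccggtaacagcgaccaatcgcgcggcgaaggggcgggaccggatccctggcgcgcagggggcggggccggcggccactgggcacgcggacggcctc
Hlf, chr11:90390918-90391167, minus strand: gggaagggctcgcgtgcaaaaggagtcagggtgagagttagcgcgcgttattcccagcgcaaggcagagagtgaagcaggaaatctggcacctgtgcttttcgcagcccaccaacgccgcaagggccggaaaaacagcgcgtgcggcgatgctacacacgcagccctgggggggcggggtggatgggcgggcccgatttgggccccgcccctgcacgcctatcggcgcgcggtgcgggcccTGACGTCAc

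The capitals mark the E-box CACGTG in Ciart, Per1 and Tef, the E-prime box CACGTT, read as AACGTG on the opposite strand, in Nr1d1, the D-box TTANGTAA in Per3 and the cAMP response element TGACGTCA in Hlf. Ciart held 3 E-boxes, which begin 116, 58 and 44 bases before its start site. Per3 held 2 D-boxes, 205 and 158 bases before the start. Tef and Per1 each had 2 windows, and both windows of Tef but 1 of those of Per1 held an E-box. No motif of these letters lay in the windows of Dbp and Nr1d2. All motifs were searched on both strands. Over all 32851 promoter windows of that length, 7.15% held an E-box, 4.68% an E-prime box, 2.32% a D-box and 1.79% a cAMP response element. A match describes the letters only.

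Total counts were 31787308 to 45397128 UMIs per library, and after filtering 6407 to 9496 nuclei per library were kept at a median of 2663 to 4063 UMIs. Nuclei fell into 23 clusters and 11 named classes, called "-like" because they were named from marker genes, and 10 classes had at least 20 nuclei in every library. The 33 clock genes studied were left out of the genes used for clustering. Libraries of 1 group differed beyond counting error, since a chi-square test of their counts gave 54.7 (WT-CD), 8.42 (R403Q-CD) and 41.2 (R403Q-EMPA) for each degree of freedom, and any 2 libraries shared 23 to 56 barcodes. R403Q-EMPA replicate 1 stood apart in its mix of clusters, since cluster 4 held 35.3% of its fibroblast-like nuclei against 2.56% to 7.68% in the other libraries. In cardiomyocyte-like nuclei, cluster 12 held 46.0% and 29.8% of the R403Q-EMPA nuclei against 2.95% to 16.6% elsewhere. Summed markers of cardiomyocytes were 53900 to 75070 CPM in cardiomyocyte-like nuclei and 1386 to 2186 CPM in fibroblast-like nuclei, so transcripts of cardiomyocytes were also counted in fibroblast-like nuclei.

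Levels are CPM, the UMI count of a gene relative to the total of its class and library, scaled by the trimmed mean of M values (TMM), and fold changes come from 1 edgeR fit per class over all 6 libraries, given on the log2 scale with their SE. Levels are compared between groups within a gene, never between genes. All 9 members passed the filter on low counts in fibroblast-, cardiomyocyte- and endothelial-like nuclei, which held 1660 to 3679, 712 to 1600 and 1277 to 2873 nuclei per library.

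**Figure D1:**
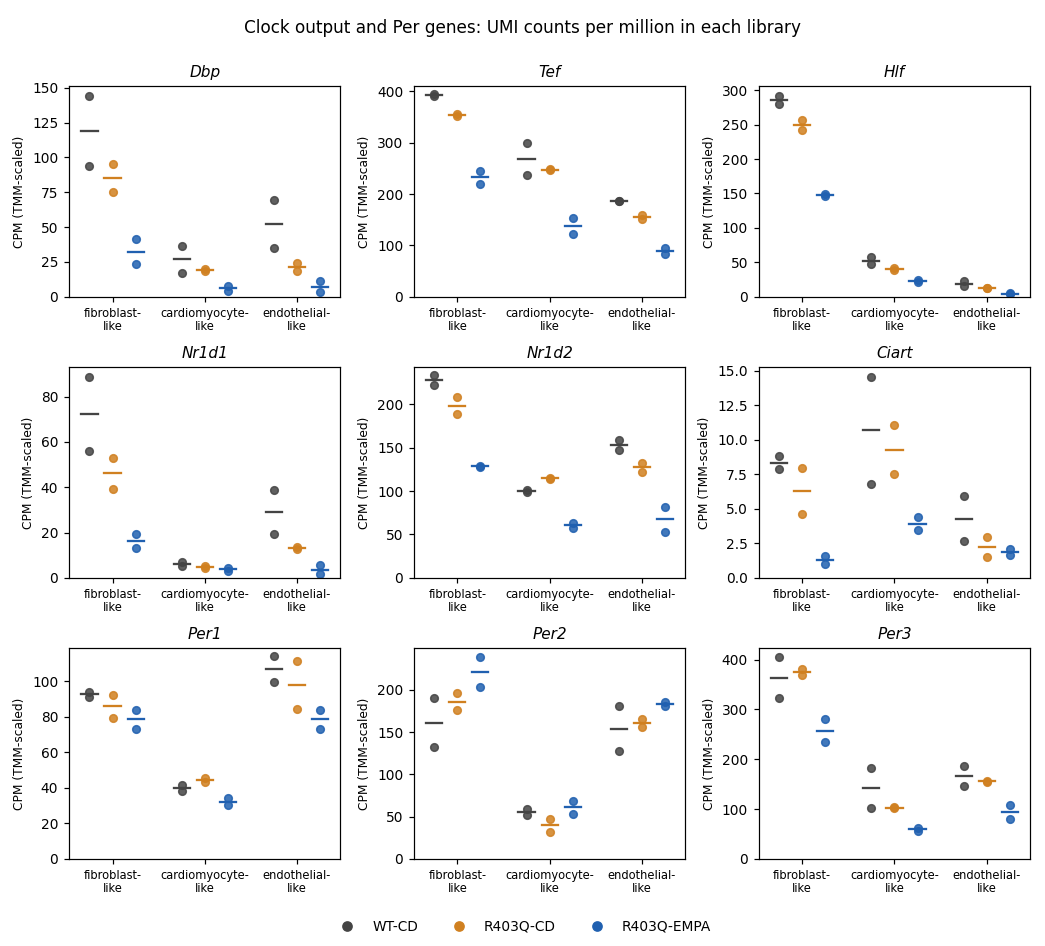
TMM-scaled CPM of the 9 members in each library, with 1 point per library and a bar at the mean of 2 libraries, on a linear axis from 0 for fibroblast-, cardiomyocyte- and endothelial-like nuclei. For Dbp, Tef, Hlf, Nr1d1, Nr1d2, Ciart, Per1 and Per3 both R403Q-EMPA points lie below both WT-CD points in each of the 3 classes, and Per2 does not share this pattern.

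Dbp was the member whose level followed the mean of the others most closely. The gene encodes the founding PAR bZIP factor, a direct output of the clock. Dbp in fibroblast-like nuclei measured 144 and 93.8 CPM for WT-CD, 75.2 and 95.1 for R403Q-CD, and 41.1 and 23.4 for R403Q-EMPA. In cardiomyocyte-like nuclei Dbp measured 36.5 and 17.4 CPM for WT-CD, 18.4 and 19.7 for R403Q-CD, and 8.09 and 4.07 for R403Q-EMPA. In endothelial-like nuclei Dbp measured 69.1 and 34.8 CPM for WT-CD, 18.3 and 24.6 for R403Q-CD, and 11.1 and 3.49 for R403Q-EMPA. In all 3 classes both R403Q-EMPA libraries lay below every other library, whereas R403Q-CD overlapped WT-CD in fibroblast- and cardiomyocyte-like nuclei and lay below it in endothelial-like nuclei. The last R403Q-EMPA value rests on 10 UMIs. The log2 fold change of Dbp between R403Q-EMPA and WT-CD was -1.86 ± 0.28, -2.13 ± 0.37 and -2.59 ± 0.43 (SE) in the fibroblast-, cardiomyocyte- and endothelial-like classes. That corresponds to levels 3.63, 4.38 and 6.02 times lower. Leaving out 1 library, the log2 value ranged from -2.72 (without R403Q-EMPA replicate 1) to -1.49 (without WT-CD replicate 1) in cardiomyocyte-like nuclei, and it reached -3.87 without R403Q-EMPA replicate 1 in endothelial-like nuclei. WT-CD replicate 1 was the highest library in each class, and it also held the most fibroblast marker RNA outside fibroblasts, 328 CPM in cardiomyocyte-like nuclei against 115 to 144 elsewhere and 802 CPM in endothelial-like nuclei against 305 to 337 elsewhere. The part of that RNA in the Dbp values was not tested.

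Tef encodes a second PAR bZIP factor, and its levels differed less between groups than those of Dbp. Tef in fibroblast-like nuclei measured 394 and 391 CPM for WT-CD, 356 and 352 for R403Q-CD, and 220.1 and 246 for R403Q-EMPA. In cardiomyocyte-like nuclei Tef measured 300.2 and 236 CPM for WT-CD, 249 and 246 for R403Q-CD, and 122 and 153 for R403Q-EMPA. In endothelial-like nuclei Tef measured 186 and 187 CPM for WT-CD, 151 and 159.5 for R403Q-CD, and 95.6 and 83.5 for R403Q-EMPA. Both R403Q-EMPA libraries were again the lowest of the 6 in each class, and replicates of fibroblast-like nuclei differed by little. For Tef, R403Q-EMPA minus WT-CD was -0.76 ± 0.13, -0.97 ± 0.18 and -1.05 ± 0.13 (log2, SE) in the same 3 classes.

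Hlf encodes the remaining PAR bZIP factor. Hlf in fibroblast-like nuclei measured 291 and 279.5 CPM for WT-CD, 242 and 257 for R403Q-CD, and 146 and 149 for R403Q-EMPA. In cardiomyocyte-like nuclei Hlf measured 47.2 and 57.6 CPM for WT-CD, 38.5 and 42.05 for R403Q-CD, and 21.2 and 24.4 for R403Q-EMPA. In endothelial-like nuclei Hlf measured 22.3 and 15 CPM for WT-CD, 12.2 and 12.2 for R403Q-CD, and 4.85 and 4.19 for R403Q-EMPA. The 3 groups kept 1 order in every class, with R403Q-CD below WT-CD and R403Q-EMPA below R403Q-CD, and no library crossed into another group. For Hlf, R403Q-EMPA minus WT-CD was -0.95 ± 0.12, -1.20 ± 0.16 and -1.98 ± 0.27 (log2, SE). The endothelial-like values rest on 46 and 12 UMIs in R403Q-EMPA, and within the largest cluster that fold change was -2.89.

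Nr1d1, which encodes REV-ERB alpha, showed a wide range in fibroblast- and endothelial-like nuclei. Nr1d1 in fibroblast-like nuclei measured 88.5 and 56.1 CPM for WT-CD, 39.3 and 53.01 for R403Q-CD, and 19.4 and 13.3 for R403Q-EMPA. In endothelial-like nuclei Nr1d1 measured 38.9 and 19.2 CPM for WT-CD, 13.4 and 12.8 for R403Q-CD, and 5.59 and 1.75 for R403Q-EMPA. In cardiomyocyte-like nuclei Nr1d1 measured 6.83 and 5.04 CPM for WT-CD, 5.19 and 4.28 for R403Q-CD, and 4.34 and 3.20 for R403Q-EMPA. The groups kept the order WT-CD, R403Q-CD, R403Q-EMPA without overlap in fibroblast- and endothelial-like nuclei, while in cardiomyocyte-like nuclei, with 37 to 65 UMIs per library, R403Q-EMPA overlapped R403Q-CD. For Nr1d1, R403Q-EMPA minus WT-CD was -2.12 ± 0.27 in fibroblast-like, -0.65 ± 0.30 in cardiomyocyte-like and -2.70 ± 0.44 in endothelial-like nuclei (log2, SE). Leaving out R403Q-EMPA replicate 1, the endothelial-like value rested on 5 UMIs and came to -4.02. Nr1d1 shares 1075 bases with Thra on the opposite strand in GENCODE M21 (GRCm38), Dbp shares 737 with Sphk2 and Tef shares 193 with the antisense gene Gm17597, and the sources used here do not say whether strand entered the counting.

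Nr1d2, which encodes REV-ERB beta, kept its replicates close together in fibroblast- and cardiomyocyte-like nuclei. Nr1d2 in fibroblast-like nuclei measured 223 and 234 CPM for WT-CD, 189 and 209 for R403Q-CD, and 129 and 128 for R403Q-EMPA. In cardiomyocyte-like nuclei Nr1d2 measured 99.2 and 101 CPM for WT-CD, 115 and 114 for R403Q-CD, and 63.4 and 57.98 for R403Q-EMPA. In endothelial-like nuclei Nr1d2 measured 147 and 158 CPM for WT-CD, 133 and 122 for R403Q-CD, and 82.2 and 53.4 for R403Q-EMPA. R403Q-EMPA lay below both other groups in each class, and in cardiomyocyte-like nuclei R403Q-CD lay above WT-CD, the reverse of its place in the other 2 classes. For Nr1d2, R403Q-EMPA minus WT-CD was -0.83 ± 0.12, -0.72 ± 0.14 and -1.15 ± 0.19 (log2, SE) in fibroblast-, cardiomyocyte- and endothelial-like nuclei.

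Ciart, also called Chrono, encodes a repressor of the Bmal1 and Clock pair and rested on few UMIs. Ciart in fibroblast-like nuclei measured 8.84 and 7.85 CPM for WT-CD, 4.61 and 7.92 for R403Q-CD, and 1.62 and 0.992 for R403Q-EMPA. The R403Q-EMPA libraries held 12 and 5 UMIs of it there, against 42 to 101 in the other 4, and their levels were the lowest. In cardiomyocyte-like nuclei Ciart measured 14.6 and 6.81 CPM for WT-CD, 7.54 and 11.1 for R403Q-CD, and 4.41 and 3.46 for R403Q-EMPA. In endothelial-like nuclei Ciart measured 5.91 and 2.66 CPM for WT-CD, 1.49 and 2.99 for R403Q-CD, and 1.69 and 2.10 for R403Q-EMPA. Both R403Q-EMPA libraries were below both of WT-CD in each class, but they overlapped R403Q-CD in endothelial-like nuclei, where the counts ran from 6 to 26 UMIs. For Ciart, R403Q-EMPA minus WT-CD was -2.61 ± 0.40, -1.44 ± 0.37 and -1.17 ± 0.55 (log2, SE). Without WT-CD replicate 1 the last 2 values were -0.78 and -0.56. The fibroblast-like value was the most negative of the 9 members in that class, which is part of why the gene was chosen. In GENCODE M21 (GRCm38) Ciart shares 3749 bases with the antisense transcript C920021L13Rik.

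The 3 Per genes, which encode the repressors of the loop, differed among themselves. Per1 in fibroblast-like nuclei measured 91.4 and 94.03 CPM for WT-CD, 79.4 and 92.4 for R403Q-CD, and 83.9 and 73.4 for R403Q-EMPA. In cardiomyocyte-like nuclei Per1 measured 41.8 and 38.1 CPM for WT-CD, 45.7 and 43.1 for R403Q-CD, and 34.1 and 30.4 for R403Q-EMPA. In endothelial-like nuclei Per1 measured 99.6 and 114 CPM for WT-CD, 84.4 and 112 for R403Q-CD, and 73.5 and 83.8 for R403Q-EMPA. R403Q-EMPA was below WT-CD in each class by a small step, and it overlapped R403Q-CD in fibroblast-like nuclei. For Per1, R403Q-EMPA minus WT-CD was -0.24 ± 0.13, -0.31 ± 0.15 and -0.45 ± 0.17 (log2, SE), the smallest difference among the 8 members that were lower in each class. Per1 is also induced by acute signals, and the summed immediate early genes were 284 and 239 CPM in fibroblast-like R403Q-EMPA nuclei against 279.5 and 176 CPM in WT-CD. The part of such signals in the Per1 values was not tested.

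Per2 stood apart from the other members. Per2 in fibroblast-like nuclei measured 132 and 190.0 CPM for WT-CD, 196 and 176 for R403Q-CD, and 203 and 239 for R403Q-EMPA. In cardiomyocyte-like nuclei Per2 measured 51.3 and 58.5 CPM for WT-CD, 31.8 and 47.6 for R403Q-CD, and 68.7 and 52.96 for R403Q-EMPA. In endothelial-like nuclei Per2 measured 128 and 180.4 CPM for WT-CD, 156 and 165 for R403Q-CD, and 180.4 and 185 for R403Q-EMPA. R403Q-EMPA was the highest group in fibroblast-like nuclei without overlap and was above R403Q-CD without overlap in the other 2 classes. It overlapped WT-CD in cardiomyocyte-like nuclei and, at the precision printed, met it in endothelial-like nuclei. For Per2, R403Q-EMPA minus WT-CD was 0.45 ± 0.18, 0.15 ± 0.21 and 0.24 ± 0.17 (log2, SE), and the cardiomyocyte-like value was -0.05 without R403Q-EMPA replicate 1. WT-CD replicate 1 was the lowest library for Per2 in fibroblast- and endothelial-like nuclei, whereas it was the highest for Dbp.

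Per3 encodes the Per protein that the loop depends on least, by studies of mutant mice. Per3 in fibroblast-like nuclei measured 405 and 322 CPM for WT-CD, 382 and 369.6 for R403Q-CD, and 281 and 234 for R403Q-EMPA. In cardiomyocyte-like nuclei Per3 measured 182 and 102 CPM for WT-CD, 102 and 103 for R403Q-CD, and 62.9 and 55.8 for R403Q-EMPA. In endothelial-like nuclei Per3 measured 186 and 145 CPM for WT-CD, 155 and 156 for R403Q-CD, and 107 and 79.6 for R403Q-EMPA. Both R403Q-EMPA libraries were the lowest in each class. For Per3, R403Q-EMPA minus WT-CD was -0.50 ± 0.16, -1.25 ± 0.24 and -0.81 ± 0.18 (log2, SE). In GENCODE M21 Per3 shares 41014 bases with Camta1 on the same strand, and how reads of such genes were assigned is not given in the sources used here.

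Each comparison was then described over the 9 members together, which the same libraries had chosen, so the counts that follow support nothing. Between R403Q-EMPA and WT-CD the median log2 fold change of the members was -0.83 in fibroblast-like, -0.97 in cardiomyocyte-like and -1.15 in endothelial-like nuclei, beside 0.00, 0.00 and 0.01 over all genes tested. Per2 was higher without overlap in fibroblast-like nuclei and, by a gap under the precision printed, in endothelial-like nuclei, where 19.5% and 19.4% of all genes were. In each of the 3 classes, 8 members were lower without overlap of the groups, while 21.1%, 23.3% and 19.4% of all genes were lower without overlap.

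Between R403Q-EMPA and R403Q-CD, which differ in the drug and share the genotype, the medians were -0.63, -0.82 and -0.79 in the same order of classes. Dbp was lower by 1.38 ± 0.28, 1.63 ± 0.37 and 1.34 ± 0.44 on the log2 scale (SE). Without R403Q-EMPA replicate 1 the Dbp value was -2.23 in cardiomyocyte-like and -2.61 in endothelial-like nuclei. Ciart differed by -2.20 ± 0.41, -1.23 ± 0.37 and -0.30 ± 0.58, and the endothelial-like value changed sign without R403Q-CD replicate 2. Members that were lower without overlap numbered 7 in each class, against 25.9%, 25.2% and 24% of all genes.

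Between R403Q-CD and WT-CD, which differ in the genotype on 1 diet, the members differed less. The medians were -0.20, -0.33 and -0.26. Members lower without overlap numbered 4, 2 and 5, beside 14.1%, 17.2% and 14.1% of all genes. Within these 3 classes the most negative values were those of Dbp, -1.25 ± 0.38, and Nr1d1, -1.12 ± 0.37, in endothelial-like nuclei (log2, SE). Nr1d2 and Per1 are members that were higher without overlap in cardiomyocyte-like nuclei, as were 16.9% of all genes. Of the 27 fold changes of 9 members in 3 classes, 10 changed sign when 1 library was left out, and the cardiomyocyte-like median became 0.07 without WT-CD replicate 1. For R403Q-EMPA minus WT-CD, 26 of 27 kept their sign under every alternative run, the exception being Per2 in cardiomyocyte-like nuclei. The comparisons share groups, so they are set side by side and not counted as separate support.

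**Figure D2:**
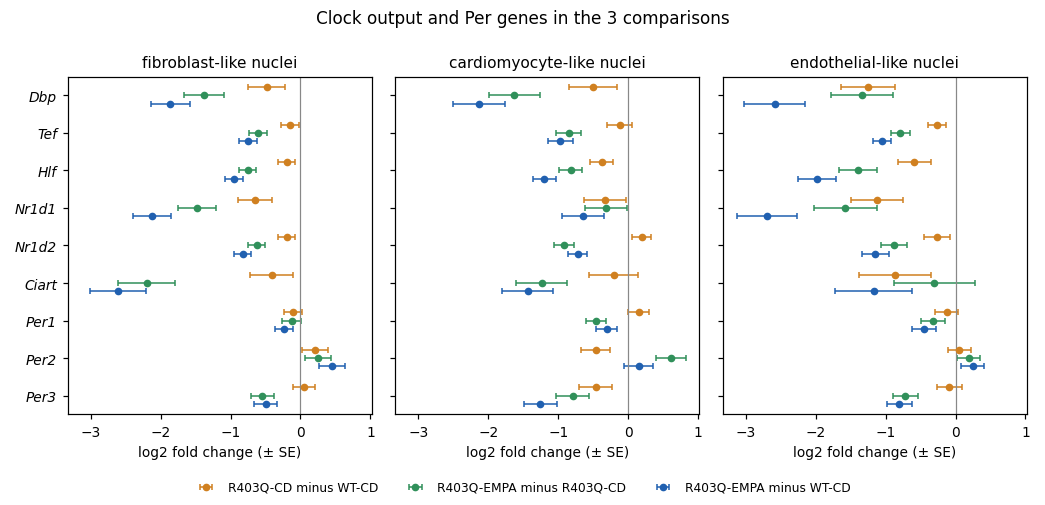
Log2 fold change of each member with its SE, from the fit over 6 libraries, for 3 comparisons in fibroblast-, cardiomyocyte- and endothelial-like nuclei; the vertical line marks no difference. The orange points of R403Q-CD minus WT-CD lie nearest to 0 for most members, and the blue points of R403Q-EMPA minus WT-CD reach -2.61 for Ciart in fibroblast-like nuclei and -2.70 for Nr1d1 in endothelial-like nuclei.

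The other 7 classes went down to 27 nuclei in a library, and the low-count filter removed members there. Over the 10 classes Dbp passed in 8, Tef, Nr1d2 and Per3 in 10, Hlf, Per1 and Per2 in 9, Nr1d1 in 7 and Ciart in 3, so the classes counted for a gene are those with enough UMIs. Tef and Per3 were lower in R403Q-EMPA than in WT-CD without overlap in 10 of 10 classes. Of all genes 16.2% to 21.8% were lower without overlap in the 7 classes not yet shown, and all classes come from the same 6 libraries, so a count over classes supports nothing by itself. Tef ranged from -1.42 in epicardial-like to -0.63 in lymphatic endothelial-like nuclei, and Per3 from -2.31 in epicardial-like to -0.39 in myeloid-like nuclei (log2). Dbp was lower without overlap in 8 of 8 classes, from -3.04 in pericyte-like to -1.78 in myeloid-like nuclei.

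Pericyte-like nuclei showed the largest difference of Dbp. In pericyte-like nuclei Dbp measured 107 and 89.6 CPM for WT-CD, 47.9 and 64.1 for R403Q-CD, and 16.6 and 6.86 for R403Q-EMPA. In pericyte-like nuclei Per2 measured 217 and 314 CPM for WT-CD, 269 and 283 for R403Q-CD, and 302 and 322 for R403Q-EMPA. Dbp thus kept the order of the groups without overlap in a class in which Per2 did not, and its log2 fold change was -3.83 without R403Q-EMPA replicate 1. Endocardial-like nuclei held the largest difference of Nr1d1. In endocardial-like nuclei Nr1d1 measured 38.3 and 14.8 CPM for WT-CD, 7.90 and 10.97 for R403Q-CD, and 3.14 and 1.19 for R403Q-EMPA, with 8 and 2 UMIs in the last pair. Its log2 fold change was -3.46 ± 0.58 (SE), -4.39 without R403Q-EMPA replicate 1 and -2.63 without WT-CD replicate 1.

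Myeloid-like nuclei had the smallest difference of Dbp among the 8 classes. In myeloid-like nuclei Dbp measured 62.6 and 49.4 CPM for WT-CD, 35.5 and 50.3 for R403Q-CD, and 17.7 and 13.8 for R403Q-EMPA. In myeloid-like nuclei Nr1d2 measured 135 and 136 CPM for WT-CD, 109.7 and 128 for R403Q-CD, and 70.2 and 60.01 for R403Q-EMPA. Both genes were lowest in the R403Q-EMPA libraries, and R403Q-CD overlapped WT-CD for Dbp and lay below it for Nr1d2. Lymphoid-like nuclei, of which a library held 55 to 107, were the class in which Nr1d2 was higher. In lymphoid-like nuclei Nr1d2 measured 57.02 and 35.5 CPM for WT-CD, 73.5 and 26.6 for R403Q-CD, and 67.5 and 65.4 for R403Q-EMPA, on 6 to 16 UMIs per library. R403Q-EMPA lay above WT-CD in that class, by 0.52 ± 0.65 (log2, SE), and R403Q-CD spanned both. The direction turned with doublets kept and without the mitochondrial filter, to -0.39 and to just below 0.

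Per1 was lower without overlap in 9 of 9 classes, with log2 fold changes of -0.24 to -0.80, of which the last, in smooth muscle-like nuclei, ranged from -3.13 to -0.25 when 1 library was left out, and Hlf in 8 of 9, with overlap in myeloid-like nuclei. Nr1d1 was lower in 7 of 7 and Ciart in 3 of 3 classes without overlap. Per2 was higher in 4 classes and lower in 5, without overlap in 2 of each, and its range of -0.35 to 0.45 held 0.

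**Figure D3:**
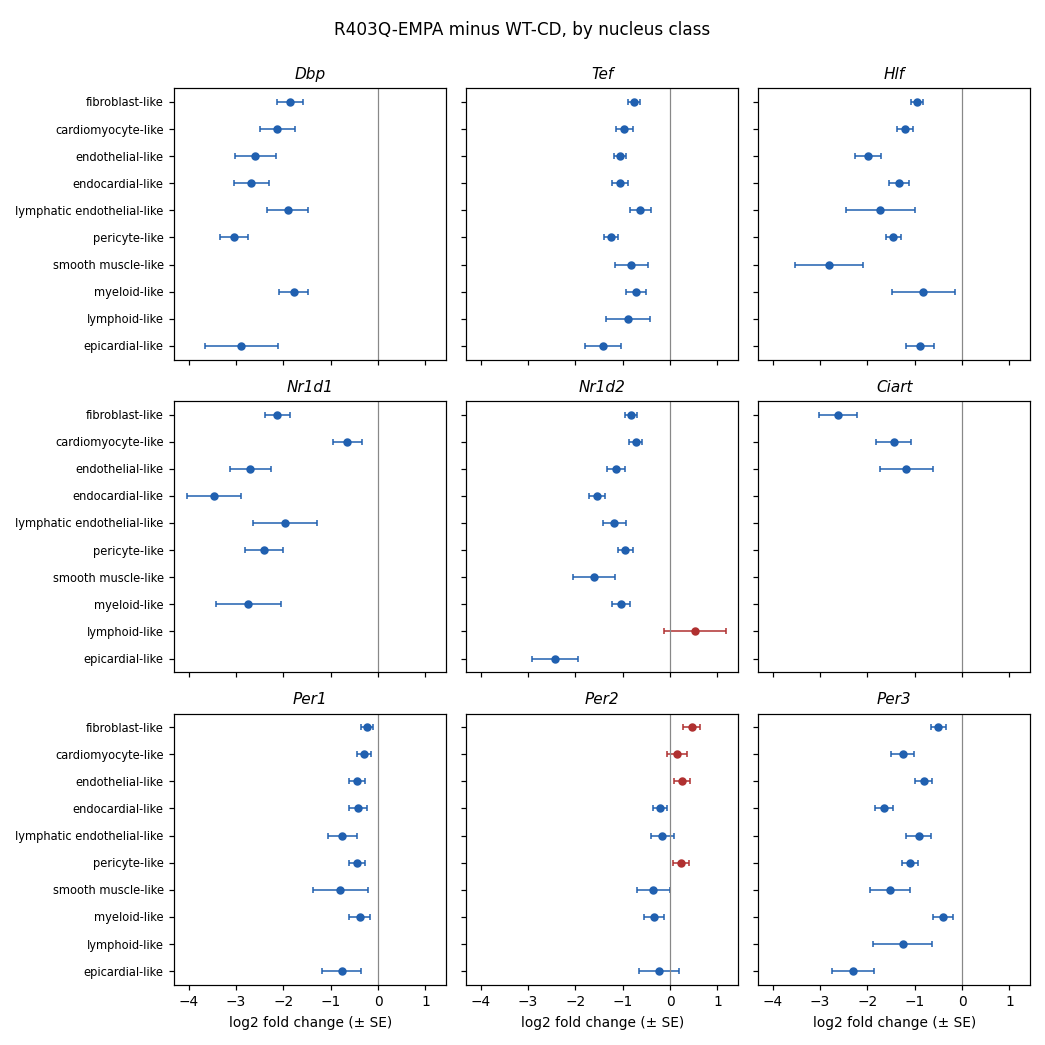
Log2 fold change of R403Q-EMPA minus WT-CD with its SE for each member (panels) in 10 nucleus classes (rows); blue points are lower and red points higher in R403Q-EMPA, and a row without a point did not pass the filter on low counts. Blue points fill the panels of Dbp, Tef, Hlf, Nr1d1, Ciart, Per1 and Per3, Nr1d2 has 1 red point at 0.52 in lymphoid-like nuclei, which turned negative under 2 settings, and Per2 lies on both sides of 0.

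Summed over all nuclei of a library, 8 of the 9 members were lower in R403Q-EMPA than in WT-CD without overlap, as were 24.2% of all genes, although fewer nuclei of a type and less RNA per nucleus cannot be told apart in such a sum. In all nuclei together Dbp measured 85.2 and 52.8 CPM for WT-CD, 37.5 and 44.99 for R403Q-CD, and 16.4 and 9.39 for R403Q-EMPA. In all nuclei together Hlf measured 146 and 131 CPM for WT-CD, 99.2 and 103 for R403Q-CD, and 44.7 and 56.3 for R403Q-EMPA. In all nuclei together Per2 measured 111 and 156 CPM for WT-CD, 129.9 and 132 for R403Q-CD, and 140.3 and 139.9 for R403Q-EMPA. Dbp and Hlf separated the 3 groups, whereas Per2 did not. The fold change of R403Q-EMPA over WT-CD was 0.189 for Dbp, 0.364 for Hlf and 1.05 for Per2. The libraries held 3679 and 2580 fibroblast-like nuclei for WT-CD, 2380 and 1978 for R403Q-CD, and 1660 and 1863 for R403Q-EMPA, so the mix of classes differed as well.

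The other clock genes were taken from a list of 16 partner genes of the loop, of which 15 passed the filter in fibroblast- and cardiomyocyte-like and 14 in endothelial-like nuclei. Bmal1, listed under its older symbol Arntl in the files, and Nfil3 were higher in R403Q-EMPA. For R403Q-EMPA minus WT-CD, edgeR's quasi-likelihood test called 2 partner genes higher and 0 lower in fibroblast-like nuclei, 2 higher and 1 lower in cardiomyocyte-like nuclei and 2 higher and 0 lower in endothelial-like nuclei. At the threshold of 0.05, 1.23%, 4.01% and 0.74% of all genes were called in those classes. Over all genes 0.631%, 1.74% and 0.505% were called higher and 0.597%, 2.27% and 0.235% lower. Medians of the list were 0.01, 0.23 and -0.04. The list was chosen with earlier results of these libraries known.

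Bmal1 encodes the positive arm of the loop. Bmal1 in fibroblast-like nuclei measured 2.36 and 5.39 CPM for WT-CD, 5.60 and 5.03 for R403Q-CD, and 31.1 and 19.1 for R403Q-EMPA. In cardiomyocyte-like nuclei Bmal1 measured 4.26 and 12.1 CPM for WT-CD, 15.6 and 10.9 for R403Q-CD, and 20.4 and 42.2 for R403Q-EMPA. In endothelial-like nuclei Bmal1 measured 4.55 and 6.73 CPM for WT-CD, 7.75 and 8.53 for R403Q-CD, and 28.03 and 40.2 for R403Q-EMPA. R403Q-EMPA libraries were the highest in each class, in 2 of 2 against each other group. Against WT-CD the log2 fold change of Bmal1 was 2.71 ± 0.37 (SE, edgeR adjusted p = 0.0159) in fibroblast-like, 1.95 ± 0.45 (adjusted p = 0.0446) in cardiomyocyte-like and 2.52 ± 0.27 (adjusted p = 0.00804) in endothelial-like nuclei. Against R403Q-CD it was 2.25 ± 0.36 (adjusted p = 0.0461), 1.24 ± 0.42 (adjusted p = 0.258) and 2.03 ± 0.25 (adjusted p = 0.0232). The call against WT-CD was kept in endothelial-like nuclei whichever library was left out, with adjusted p from 0.00765 to 0.0229. In fibroblast-like nuclei it was lost without R403Q-EMPA replicate 1 (range 0.00607 to 0.0845), and in cardiomyocyte-like nuclei without WT-CD replicate 1, R403Q-CD replicate 1 or 2, or R403Q-EMPA replicate 2 (range 0.0222 to 0.181). Both calls against R403Q-CD were lost without R403Q-CD replicate 1 or 2 or R403Q-EMPA replicate 1, with adjusted p up to 0.381 in fibroblast-like and 0.215 in endothelial-like nuclei. DESeq2 did not call Bmal1 in cardiomyocyte-like nuclei (adjusted p = 0.105). Within the largest cluster of fibroblast-like nuclei the calls against WT-CD (adjusted p = 0.0861) and R403Q-CD (adjusted p = 0.183) were lost, the latter also with doublets kept or without the mitochondrial filter. The fold changes there were 1.65 and 1.42. Without WT-CD replicate 2 the fibroblast-like value against WT-CD was 3.42. Leaving out 1 library, the cardiomyocyte-like value against WT-CD ranged from 1.34 (without R403Q-EMPA replicate 2) to 2.88 (without WT-CD replicate 2) and was 1.36 without WT-CD replicate 1. Against R403Q-CD it was 0.63 without R403Q-EMPA replicate 2. Bmal1 is a known target of REV-ERB through the element called RORE, and 1 of its 2 RefSeq windows held a match, AAAGTAGGTCA, that begins at base 27 after the start site. Of all windows 0.384% held that element.

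Nfil3 encodes the repressor that competes with Dbp, Tef and Hlf at D-boxes. Nfil3 in fibroblast-like nuclei measured 2.36 and 3.41 CPM for WT-CD, 3.29 and 3.32 for R403Q-CD, and 9.85 and 10.7 for R403Q-EMPA. In cardiomyocyte-like nuclei Nfil3 measured 7.84 and 14.1 CPM for WT-CD, 22 and 17.1 for R403Q-CD, and 32.01 and 37.6 for R403Q-EMPA. In endothelial-like nuclei Nfil3 measured 0.909 and 0.981 CPM for WT-CD, 1.34 and 1.28 for R403Q-CD, and 5.38 and 4.89 for R403Q-EMPA, on 4 to 51 UMIs per library. R403Q-EMPA was again the highest group without overlap in each class. Against WT-CD the log2 fold change of Nfil3 was 1.83 ± 0.28 (SE, edgeR adjusted p = 0.0234), 1.67 ± 0.26 (adjusted p = 0.0103) and 2.42 ± 0.43 (adjusted p = 0.0481). The cardiomyocyte-like call was kept whichever library was left out (adjusted p 0.0053 to 0.0376). The fibroblast-like call was lost without R403Q-CD replicate 1 or 2 or R403Q-EMPA replicate 1 (range 0.032 to 0.116), and the endothelial-like call without any library except WT-CD replicate 1 (range 0.0468 to 0.413). The endothelial-like call was also lost with DESeq2 and within the largest cluster, with adjusted p up to 0.156. Against R403Q-CD, Nfil3 differed by 1.63 ± 0.28 (adjusted p = 0.0501), 0.83 ± 0.24 (adjusted p = 0.202) and 1.97 ± 0.39 (adjusted p = 0.119), which did not pass.

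**Figure D4:**
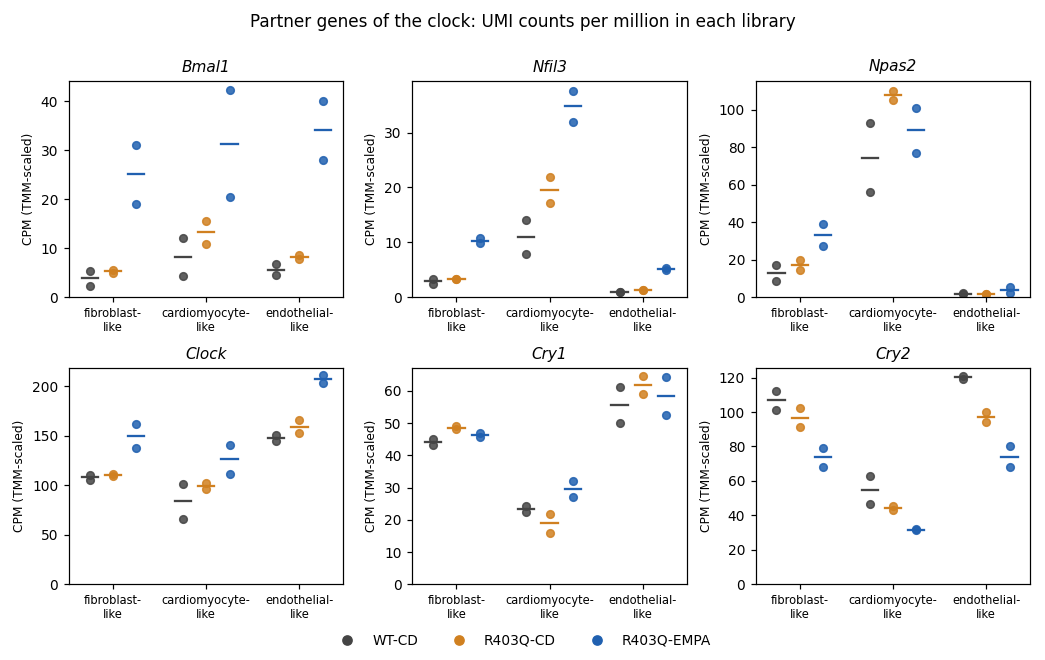
TMM-scaled CPM of 6 partner genes of the clock in each library, drawn as in the plot of the members, on a linear axis from 0. Both R403Q-EMPA points of Bmal1 and Nfil3 lie above the other libraries in each class, those of Cry2 lie below, and Cry1 shows no common order.

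Npas2 and Clock, the alternative partners of Bmal1, were not called in these 3 classes but were called in endocardial-like nuclei. Npas2 in fibroblast-like nuclei measured 8.57 and 17.2 CPM for WT-CD, 19.8 and 14.3 for R403Q-CD, and 27.4 and 39.3 for R403Q-EMPA. In cardiomyocyte-like nuclei Npas2 measured 56.2 and 92.8 CPM for WT-CD, 110.1 and 105 for R403Q-CD, and 76.98 and 101 for R403Q-EMPA. R403Q-EMPA was thus the highest group in the first class and below R403Q-CD in the second. For Npas2, R403Q-EMPA minus WT-CD was 1.36 ± 0.32 (edgeR adjusted p = 0.0879), 0.26 ± 0.23 (adjusted p = 0.585) and 1.16 ± 0.47 (adjusted p = 0.354). Without R403Q-EMPA replicate 1 the last of these was 0.31. Clock differed by 0.47 ± 0.13, 0.59 ± 0.21 and 0.49 ± 0.12 (adjusted p = 0.14, 0.16 and 0.14). In endocardial-like nuclei Npas2 measured 11.6 and 24.3 CPM for WT-CD, 17.4 and 33.7 for R403Q-CD, and 62.4 and 61.4 for R403Q-EMPA. In endocardial-like nuclei Clock measured 95.8 and 109.5 CPM for WT-CD, 118 and 114 for R403Q-CD, and 165 and 169.9 for R403Q-EMPA. Both R403Q-EMPA libraries lay above both of WT-CD for each gene. The log2 fold changes against WT-CD were 1.77 ± 0.33 for Npas2 (edgeR adjusted p = 0.0262) and 0.70 ± 0.15 for Clock (adjusted p = 0.0421). The Npas2 value was 2.42 without WT-CD replicate 2. The Npas2 call was lost without R403Q-EMPA replicate 1 (range 0.0113 to 0.101), and the Clock call without any library except WT-CD replicate 2 (range 0.0324 to 0.216) and with DESeq2 (adjusted p = 0.0841). Whether endocardial-like nuclei differ from the other classes in either gene was not tested.

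Bmal1 and Nfil3 were called in endocardial-like nuclei as well, where 1.95% of all genes were called against WT-CD. The log2 fold change of Bmal1 was 3.37 ± 0.37 (edgeR adjusted p = 0.00256), a call kept whichever library was left out (range 0.000943 to 0.0209). Nfil3 rested there on 2 and 0 UMIs for WT-CD and 27 and 12 for R403Q-EMPA, so its fold change is not given, and its call (adjusted p = 0.044) was lost without any library except WT-CD replicate 1 (range 0.0435 to 0.381) and with DESeq2 (adjusted p = 0.11). In pericyte-like nuclei Bmal1 measured 1.71 and 1.44 CPM for WT-CD, 4.48 and 2.79 for R403Q-CD, and 29.3 and 18 for R403Q-EMPA. Bmal1 was called there against WT-CD, by 3.87 ± 0.49 (adjusted p = 0.000361) beside 1.77% of all genes. The value rests on 5 and 4 UMIs for WT-CD and 37 and 21 for R403Q-EMPA, so its size is uncertain. In myeloid-like nuclei Bmal1 measured 13.6 and 9.31 CPM for WT-CD, 18.7 and 30.6 for R403Q-CD, and 45.6 and 40.01 for R403Q-EMPA. The difference from WT-CD was 1.88 ± 0.34 (adjusted p = 0.0297) beside 0.593% of all genes, and this call was lost without WT-CD replicate 1 or 2 or R403Q-EMPA replicate 1 (range 0.0397 to 0.282) and without the mitochondrial filter (adjusted p = 0.0767). Bmal1 was thus called against WT-CD in 6 of the 8 classes in which it passed the filter, higher in each. Its WT-CD counts were low in some of these classes, where a gene can pass the filter through R403Q-EMPA. The count of classes therefore supports nothing by itself. Against R403Q-CD, Bmal1 was called in endocardial-like (3.69 ± 0.40, adjusted p = 0.00556) and pericyte-like nuclei (2.70 ± 0.45, adjusted p = 0.00752), beside 0.504% and 0.665% of all genes. R403Q-CD held 2 and 16 UMIs of Bmal1 in the former class and 10 and 7 in the latter. Without R403Q-CD replicate 2 the former value was 5.22, resting on 2 UMIs in R403Q-CD, and the call was lost. The latter call was lost without R403Q-CD replicate 1 or 2 or R403Q-EMPA replicate 1 and with DESeq2.

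Summed over all nuclei, edgeR called 4.62% of all genes for R403Q-EMPA minus WT-CD, 2.3% higher and 2.32% lower. Bmal1 differed there by 2.55 ± 0.28 (adjusted p = 0.00909) and Nfil3 by 2.28 ± 0.24 (adjusted p = 0.00832), calls kept whichever library was left out. Npas2 differed by 1.18 ± 0.26 (adjusted p = 0.0473) and Cry2 by -0.69 ± 0.12 (adjusted p = 0.024), and each of these calls was lost in 5 of 6 cases when 1 library was left out, Npas2 being kept without R403Q-EMPA replicate 1 and Cry2 without WT-CD replicate 1. The Npas2 call was also lost with doublets kept (adjusted p = 0.0523). For R403Q-EMPA minus R403Q-CD, 0.0736% of all genes were called over all nuclei, 0.0683% as higher, and 0 partner genes. Of the 16 partner genes 7 had an unadjusted p under 0.05, and the share of all genes under that threshold was not computed.

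Cry1 and Cry2 encode cryptochromes, the partners of the Per proteins. In cardiomyocyte-like nuclei Cry2 measured 62.6 and 46.8 CPM for WT-CD, 43.3 and 45.4 for R403Q-CD, and 31.8 and 31.3 for R403Q-EMPA. Its log2 fold change against WT-CD was -0.79 ± 0.17 (SE, edgeR adjusted p = 0.0321), lower in 2 of 2 libraries, and it was -0.54 ± 0.14 (adjusted p = 0.109) in fibroblast-like and -0.71 ± 0.13 (adjusted p = 0.061) in endothelial-like nuclei. The cardiomyocyte-like call was lost without any library except WT-CD replicate 2 (adjusted p 0.00976 to 0.187), and within the largest cluster (adjusted p = 0.0634). Cry1 differed by 0.07 ± 0.12, 0.33 ± 0.19 and 0.05 ± 0.16 (adjusted p = 0.852, 0.372 and 0.939), and a difference between the 2 genes was not tested.

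For R403Q-EMPA minus R403Q-CD, edgeR called Bmal1 as the only partner gene in fibroblast- and in endothelial-like nuclei and 0 in cardiomyocyte-like nuclei, where 5 had an unadjusted p under 0.05, DESeq2 called 0 and 0.105% of all genes were called higher. Of all genes 0.564%, 0.237% and 0.235% were called either way. For R403Q-CD minus WT-CD it called 0 in each class, where 0, 3 and 2 had an unadjusted p under 0.05 and DESeq2 called 0, 1 and 0. Of all genes 0%, 0.0627% and 0% were called. Split by direction, the calls in the second class came to 0.0557% upward and 0.00697% downward. A second list held 8 genes with known daily rhythms, namely Usp2, Wee1, Nampt, Klf9, Klf10, Klf15, Kcnip2 and Por, and all 8 passed the filter in the 3 classes. edgeR called 0 of them in any of the 9 combinations of these classes and comparisons. Over all nuclei it called 1 of them higher and 1 lower for R403Q-EMPA minus WT-CD, named here after their values were seen. They are Kcnip2, by 0.73 ± 0.14 (adjusted p = 0.0318), lost without any library except R403Q-EMPA replicate 1 (range 0.0325 to 0.0894), and Por, by -0.55 ± 0.12 (adjusted p = 0.0498), lost without any library (range 0.0604 to 0.163) and under 3 other settings. By class, Kcnip2 was higher without overlap in fibroblast- (0.51), endothelial- (0.36), endocardial- (1.08) and pericyte-like nuclei (0.68). It was lower without overlap in cardiomyocyte-like nuclei (-0.12). A difference in the mix of classes cannot be told apart in the sum over all nuclei. At an unadjusted p under 0.05, 1, 0 and 1 of the 8 passed for R403Q-EMPA minus WT-CD in fibroblast-, cardiomyocyte- and endothelial-like nuclei. For R403Q-EMPA minus R403Q-CD 1, 2 and 0 passed, and 0 in each class for R403Q-CD minus WT-CD. No share of all genes under that unadjusted threshold was computed for these counts or those of the partner genes. DESeq2 called 1 of the 8 for R403Q-EMPA minus R403Q-CD in fibroblast- and in cardiomyocyte-like nuclei and 0 elsewhere. The medians for R403Q-EMPA minus WT-CD were 0.07, -0.14 and -0.04. Klf9, a factor driven by the clock and by glucocorticoids, was the output gene fixed to be shown. Klf9 in fibroblast-like nuclei measured 328 and 342 CPM for WT-CD, 288 and 316 for R403Q-CD, and 298 and 356 for R403Q-EMPA. It differed there by -0.04 ± 0.14 (adjusted p = 0.943), with overlap of the groups.

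The likeness of other genes to the members was measured over 18 points, the 6 libraries in each of 3 classes, centred within class. The points share libraries, depth and, in part, free RNA, so the correlations are a description. Among the members Pearson's r with the mean of the other 8 was 0.971 for Dbp, 0.924 for Tef, 0.919 for Hlf, 0.918 for Nr1d2, 0.882 for Nr1d1, 0.876 for Per3, 0.761 for Ciart and 0.740 for Per1. Only Per2, at -0.594, ran the other way. Of 12275 genes measured in the 3 classes, the non-members with the highest r with the mean of the 9 members were Tspan4 (0.937), Gtpbp10 (0.935), Zfp810 (0.927), Luc7l2 (0.916) and Haghl (0.914). The lowest were Naa16 (-0.950), Nfil3 (-0.949), Bmal1 (-0.943), Gm10069 (-0.943) and Mrps6 (-0.936). Nfil3 and Bmal1 are thus 2 of the 5 genes most unlike the members in their pattern over these libraries. Clock had an r of -0.903 and Cry2 of 0.870.

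Other measures moved with the R403Q-EMPA group beside the members. Summed heat-shock genes were 477 and 510 CPM in fibroblast-like R403Q-EMPA nuclei against 122 to 181 in the other 4 libraries. The sums were 280 and 258 against 81.7 to 142 in cardiomyocyte-like nuclei and 509 and 633 against 90.3 to 143 in endothelial-like nuclei. Summed glucocorticoid response genes followed libraries and not groups, with 1228 CPM in WT-CD replicate 1, 1998 in R403Q-EMPA replicate 1 and 3058 to 3442 in the other 4 in fibroblast-like nuclei. Within the largest cluster of each class, an alternative added after the data were seen because of the mix of clusters in R403Q-EMPA, the median of the members for R403Q-EMPA minus WT-CD was -0.72 in fibroblast-like, -0.77 in cardiomyocyte-like and -1.42 in endothelial-like nuclei. The part of the heat-shock and glucocorticoid genes in the members' levels was not tested.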

How the data were processed

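Nuclei of left ventricle were sequenced with the 10x 3′ assay in 6 libraries, and the authors deposited raw UMI counts per gene and barcode, made with Cell Ranger 8.0.1 per the file headers. The submitters' notes name the build GRCm39, and the annotation and the use of introns or strand are not given in the sources used here. Nuclei with at least 500 UMIs, 300 genes and at most 5% mitochondrial UMIs were kept, and doublets called by Scrublet (3.74% to 6.63% per library) were removed. Clustering in scanpy 1.11.5 used 2000 variable genes without the 33 clock genes, 30 components, 15 neighbours and a resolution of 1. A cluster was named from at least 3 markers at 2-fold and 10% of nuclei. Counts were summed per library and class, and 14049 to 15064 genes that passed filterByExpr in the 3 main classes were fitted in edgeR 4.0.16 (quasi-likelihood, TMM, 3 residual degrees of freedom, Benjamini-Hochberg adjustment over all genes tested, threshold 0.05). DESeq2 1.42.0 was an alternative. The pipeline was tested on simulated data. Named genes were the 9 members, called partner or output genes, Bmal1, Npas2, Clock, Cry1, Cry2, Nfil3 and Klf9, and the 5 genes most and least like the members (log2 CPM, prior count 2). Members and lists were chosen with earlier results of these data known. Replicates were numbered in accession order.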

Additional observations from a re-analysis of the deposited data

Results flagged for a closer look

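Some genes had groups that separated in opposite directions in different classes of nuclei, with both libraries of 1 group above both of the other in 1 class and below in another. None of these differences between classes was tested. For R403Q-CD minus WT-CD, Nr1d2 differed by 0.20 on the log2 scale in cardiomyocyte-like nuclei and by -1.26 in epicardial-like nuclei, the most negative of 7 classes on that side. For R403Q-EMPA minus WT-CD, Nr1d2 differed by 0.52 in lymphoid-like and by -2.44 in epicardial-like nuclei, with 9 classes on the lower side. The lymphoid-like value was -0.39 with doublets kept and below 0 without the mitochondrial filter, so its direction depends on those settings. Per1 differed by 0.15 in cardiomyocyte-like and by -0.71 in smooth muscle-like nuclei for R403Q-CD minus WT-CD. Per2 differed by 0.61 in cardiomyocyte-like and by -0.46 in epicardial-like nuclei for R403Q-EMPA minus R403Q-CD, and by 0.45 in fibroblast-like and -0.35 in smooth muscle-like nuclei for R403Q-EMPA minus WT-CD.

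Among the partner genes, Npas2 differed by 1.27 in endothelial-like and by -0.28 in cardiomyocyte-like nuclei for R403Q-EMPA minus R403Q-CD. Cry1 differed by 0.14 in fibroblast-like and by -0.30 in cardiomyocyte-like nuclei for R403Q-CD minus WT-CD, and by 0.64 in cardiomyocyte-like and -0.069 in fibroblast-like nuclei for R403Q-EMPA minus R403Q-CD. Epicardial- and smooth muscle-like nuclei numbered 27 to 71 and 29 to 47 per library, so their values rest on few nuclei.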

How the results depend on the processing

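No paired analysis was possible because the replicate numbers were given in accession order and pair no libraries. Each result was recomputed under 7 other settings, with each of 6 libraries left out and, added after the data were seen, within the largest cluster of a class. Values are given for fibroblast-, cardiomyocyte- and endothelial-like nuclei in that order unless named. Counts of members called by edgeR are a description, since the same libraries chose the members. They were 6, 5 and 5 for R403Q-EMPA minus WT-CD, beside 1.23%, 4.01% and 0.74% of all genes. They were 1, 1 and 0 for R403Q-EMPA minus R403Q-CD, beside 0.564%, 0.237% and 0.235%, with 7, 8 and 6 at an unadjusted p under 0.05. They were 0 in each class for R403Q-CD minus WT-CD, also with DESeq2, with 1, 1 and 3 at an unadjusted p under 0.05. The share of all genes under that unadjusted threshold was not computed, so the unadjusted counts support nothing. Without the filter on low counts, members called for R403Q-EMPA minus R403Q-CD were 7, 7 and 6, beside 4%, 2.77% and 2.13% of all genes, and partner genes 4, 3 and 2. Partner genes for R403Q-EMPA minus WT-CD were then 6, 5 and 4, members for R403Q-CD minus WT-CD 1 in fibroblast-like and 2 in endothelial-like nuclei (0.408% and 0.322% of all genes), and partner genes for that comparison 2 in cardiomyocyte-like nuclei. Output genes were 1 for R403Q-EMPA minus R403Q-CD in fibroblast- and cardiomyocyte-like nuclei and 1 for R403Q-EMPA minus WT-CD in fibroblast-like nuclei. With DESeq2, members for R403Q-EMPA minus R403Q-CD were 6, 4 and 3 beside 1.9%, 1.5% and 0.896% of all genes, partner genes 2 in fibroblast-like nuclei and output genes 1 in fibroblast- and cardiomyocyte-like nuclei, and partner genes for R403Q-CD minus WT-CD were 1 in cardiomyocyte-like nuclei. With relative log expression scaling, partner genes for R403Q-EMPA minus R403Q-CD were 2 in fibroblast-like nuclei. Without the mitochondrial filter, members for R403Q-EMPA minus R403Q-CD were 0 in fibroblast- and cardiomyocyte-like nuclei, partner genes 0 in fibroblast-like nuclei, and partner genes for R403Q-CD minus WT-CD 1 in cardiomyocyte-like nuclei. With doublets kept, members and partner genes for R403Q-EMPA minus R403Q-CD were 0 in fibroblast-like nuclei.

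Within the largest cluster, member medians for R403Q-EMPA minus R403Q-CD were -0.54, -0.66 and -1.17, and for R403Q-EMPA minus WT-CD -0.77 in cardiomyocyte-like and -1.42 in endothelial-like nuclei. Members called for R403Q-EMPA minus WT-CD were 3 in cardiomyocyte-like nuclei and, for R403Q-EMPA minus R403Q-CD, 2 in endothelial-like nuclei. Partner genes were 0 in fibroblast-like nuclei for R403Q-EMPA minus R403Q-CD, and 1 in fibroblast- and 1 in endothelial-like nuclei for R403Q-EMPA minus WT-CD. Leaving out 1 library, the cardiomyocyte-like median ranged from -0.44 to 0.073 for R403Q-CD minus WT-CD and from -1.13 to -0.78 for R403Q-EMPA minus WT-CD, and the fibroblast-like median from -0.70 to -0.62 for R403Q-EMPA minus R403Q-CD. Members called for R403Q-EMPA minus R403Q-CD ranged from 0 to 5, 0 to 5 and 0 to 2, being 0 in fibroblast- and cardiomyocyte-like nuclei without any 1 of the R403Q-CD or R403Q-EMPA libraries, and partner genes from 0 to 2, 0 to 1 and 0 to 1. Members for R403Q-EMPA minus WT-CD ranged from 2 to 6, 1 to 6 and 0 to 5, with 0 in endothelial-like nuclei without R403Q-EMPA replicate 1, and partner genes from 0 to 3, 1 to 4 and 1 to 4. No share of all genes called stands beside these counts within the largest cluster or without 1 library. The number of all genes called moved as well, so these counts support nothing. The cause of these changes was not tested.

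Genes called for R403Q-EMPA minus WT-CD were 185, 576 and 104 and ranged from 83 to 1091, 239 to 1427 and 102 to 787 under the other settings and from 24 to 590, 118 to 905 and 13 to 574 without 1 library. For R403Q-EMPA minus R403Q-CD they were 85, 34 and 33 and ranged from 22 to 989, 6 to 685 and 26 to 504, or 0 to 295, 0 to 252 and 4 to 174 without 1 library, and for R403Q-CD minus WT-CD they were 0, 9 and 0 and reached 101, 493 and 76, or 0, 55 and 7 without 1 library. With 2 libraries per group, the low UMI counts of Ciart and of Nr1d1 in small classes limit their values.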
